A study of Mus musculus with 6 samples.

Results

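The loci of Pdk4, Ppara, Slc25a4 and Atp5a1, 4 genes of energy metabolism, held 21 of the 34518 noncoding features in a comparison of left atria with FOG2 overexpression and wild-type left atria. A feature was counted when it overlapped the gene's body in GENCODE M21 (mm10), or when it overlapped no protein-coding gene and had the start of one of these genes as its nearest protein-coding start within 100 kb. Pdk4 had 3 such features, Ppara 4, Slc25a4 6 and Atp5a1 8. Of the 21, 12 overlapped their gene and 9 lay outside it.

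The mice were adult and of the CD1 strain, and their left atria gave 3 libraries labelled FOG2 overexpression (FOG2_OE) and 3 labelled wild type (WT). Per the labels' protocols, the animals, called DTG and NTG there, were reared without doxycycline for 1 week, and ribosomal and polyadenylated transcripts were removed from total RNA. The promoter that drives the transgene and the cells in which it acts are not given in the sources used here, and neither is whether each library came from a single animal. FOG2, encoded by Zfpm2, is a cofactor that binds GATA transcription factors. The features carry identifiers of a transcript assembler, such as MSTRG.68047, and most are short stretches of RNA without an annotated name. The protein-coding mRNAs of the 4 genes were not analysed here, so no value below is given as a level of these mRNAs.

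The heart draws most of its energy from fatty acids and switches between fatty acids and glucose according to supply. PDK4 is a kinase of the mitochondrial matrix that phosphorylates and inactivates the pyruvate dehydrogenase complex, which keeps pyruvate from glycolysis out of the citric acid cycle. PPARα, the product of Ppara, is a nuclear receptor that is activated by fatty acids and switches on genes of fatty acid oxidation and also Pdk4. ANT1, the product of Slc25a4, exchanges ADP for ATP across the inner mitochondrial membrane, and Atp5a1 encodes the alpha subunit of the ATP synthase that makes this ATP. RNA can also be transcribed upstream of a promoter on the other strand, or past the end of a gene when transcription runs on beyond the site where the mRNA is cut, and RNA of this last kind lies beyond the cut where the poly(A) tail of the mRNA is added.

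The promoters are shown because the assembled features of Ppara and Slc25a4 lay near or in them, and because FOG2 acts with GATA factors. The stretches run from 250 bases before to 50 bases after a RefSeq start (GRCm38.p6), 5′ to 3′ on the strand of the gene. They lie at chr6:5496229-5496528 on the minus strand for Pdk4, at chr15:85735526-85735825 on the plus strand for Ppara and at chr8:46211013-46211312 on the minus strand for Slc25a4. The Ppara stretch is set around a start at 85735776. The outermost RefSeq start of Ppara, 85734910, lies farther upstream, inside the feature MSTRG.31550, and its promoter is not shown. Capitals mark a match to a GATA motif. The letters searched, on both strands, were AGATAA with its variant AGATAG and the same pair with T as the first letter, TGATAA with its variant TGATAG.
Pdk4: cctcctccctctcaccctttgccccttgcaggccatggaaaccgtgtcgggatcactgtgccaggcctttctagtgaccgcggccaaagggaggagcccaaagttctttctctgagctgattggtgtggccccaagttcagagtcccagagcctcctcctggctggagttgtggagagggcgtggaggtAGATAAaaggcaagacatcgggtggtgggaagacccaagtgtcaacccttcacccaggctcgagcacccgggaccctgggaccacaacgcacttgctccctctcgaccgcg
Ppara: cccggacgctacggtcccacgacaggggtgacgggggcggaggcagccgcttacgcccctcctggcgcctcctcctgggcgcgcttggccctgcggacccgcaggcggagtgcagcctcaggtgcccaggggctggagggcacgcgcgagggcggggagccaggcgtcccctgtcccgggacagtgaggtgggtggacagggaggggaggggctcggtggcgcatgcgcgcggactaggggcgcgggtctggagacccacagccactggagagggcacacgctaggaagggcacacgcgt
Slc25a4: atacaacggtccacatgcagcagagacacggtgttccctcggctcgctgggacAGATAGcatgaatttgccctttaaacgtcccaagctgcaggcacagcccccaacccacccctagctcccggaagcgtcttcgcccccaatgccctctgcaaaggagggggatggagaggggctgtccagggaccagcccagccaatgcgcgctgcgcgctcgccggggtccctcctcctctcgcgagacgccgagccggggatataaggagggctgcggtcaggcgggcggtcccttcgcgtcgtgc

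The Pdk4 promoter held AGATAA at bases 190 to 195, of which the first base lies 61 bases before the start, and the Slc25a4 promoter held AGATAG at bases 54 to 59. At least 1 of the 4 GATA motifs was found in 29.8% of the 32851 RefSeq promoters of the same length, so that a match is common. The T-box motif AGGTGT (13.7% of promoters), the nuclear receptor motif AGGTCA (16.3%) and its direct repeat with any 1 base between the copies (0.0396%) were not found in any of the 3 stretches, which says only that these letters are not in these windows. The Ppara stretch had 30 CpG sites and a GC content of 74.7%, the Slc25a4 stretch 25 and 65.7%, and the Pdk4 stretch 12 and 60.7%, against medians of 7 and 52.7% over all promoters. The Slc25a4 stretch shared 18 bases with the feature MSTRG.80193, the Ppara stretch began 285 bases beyond the end of MSTRG.31550, and no feature lay within 11725 bases of the Pdk4 stretch.

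Of the 21 features, 2 were higher in FOG2_OE than in WT atria and 2 were lower at an adjusted p under 0.05 per the authors' deposited table. Of all 34518 features, 5.81% were called, with 1.16% higher and 4.65% lower. Both features called higher lay just past the end of Pdk4. The features called lower lay over the start of Ppara and past the end of Slc25a4, and none of the 8 features of Atp5a1 was called. The 17 other features had log2 fold changes per the authors' deposited table between -2.47 and 2.15. The median log2 fold change of the 21 features was -0.03 per the authors' deposited table and that of all features was -0.21, so that the middle of the table lay below 0. Of the 21 features, 10 had under 10 fitted reads per library on average. Over the features of at least 10 fitted reads alone, 8.63% were called, and at an adjusted p under 0.01 it was 3.3% of all features. A p-value above the threshold does not show that such features did not differ.

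**Figure D1:**
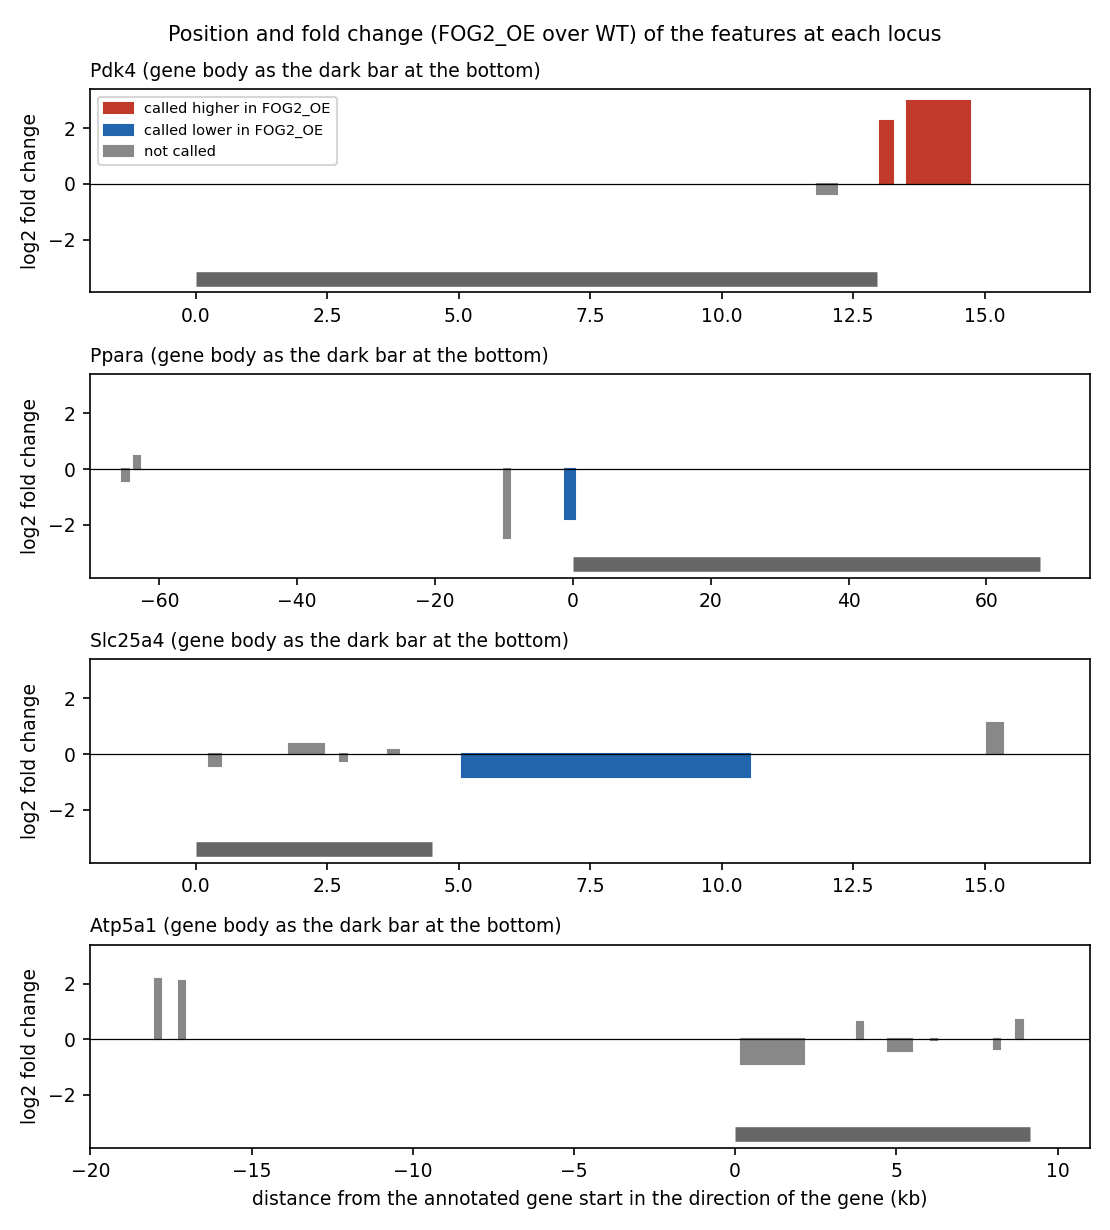
Positions of the 21 features relative to the start of each gene, in kb along the gene's strand, with the gene body as a dark bar and each feature drawn at its log2 fold change of FOG2_OE over WT (authors' deposited table). Narrow features are widened to be visible. The called features lie past the ends of Pdk4 (2.98 and 2.25) and Slc25a4 (-0.81) and over the start of Ppara (-1.78), and none was called inside a gene body.

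The 6 sample columns are fitted read counts from the authors' model. Within a group they differ only through library size, so that they carry no spread between replicates and no SD is given. Precision is given as a standard error of the log2 fold change, implied by the likelihood ratio per the authors' deposited table, and CPM are reads in 1000000 reads of the effective library. The likelihood ratio test takes the dispersion of each feature as known. With an F test on 10 residual degrees of freedom, which allows for its error, none of the 4 calls passed and 1.27% of all features did, with adjusted p of 0.123 for MSTRG.68047, 0.137 for MSTRG.68058, 0.104 for MSTRG.31550 and 0.155 for MSTRG.80188. The p-values measure only the spread between these libraries, and in whole atria fewer cells of a type and less RNA per cell cannot be told apart.

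**Figure D2:**
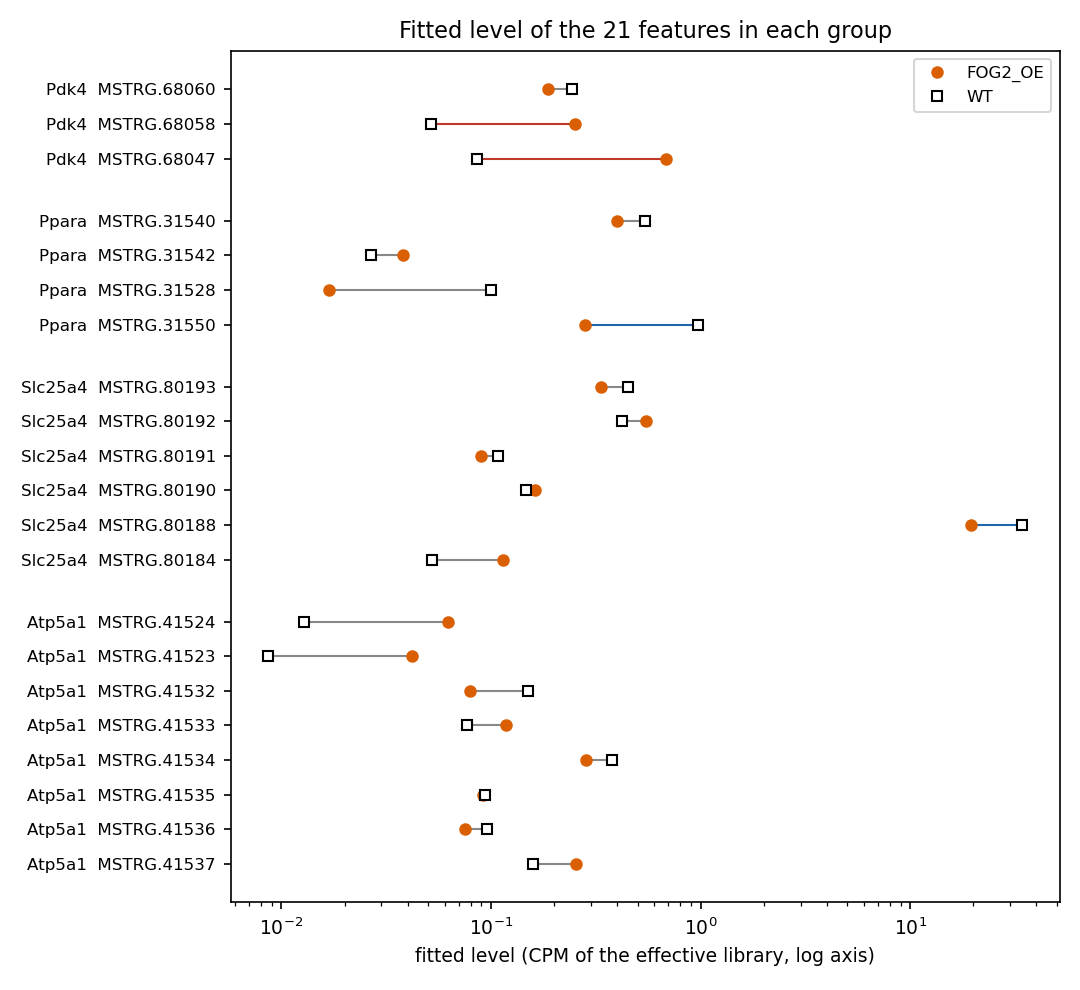
Fitted level of each of the 21 features in CPM of the effective library, on a logarithmic axis, in FOG2_OE and WT libraries. MSTRG.80188, past the end of Slc25a4, stands at 19.5 CPM in FOG2_OE atria against 34.2 CPM in WT atria, and the other 20 features lie below 1 CPM in both groups.

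The noncoding RNA past the end of Pdk4 was raised in FOG2_OE atria. MSTRG.68047 is a feature of 1211 bases at chr6:5481581-5482791, listed on the minus strand, which is that of Pdk4 (chr6:5483351-5496309), and starts 560 bases past the annotated end of the gene. Its fitted counts were 54.7, 49.7 and 58.3 in the FOG2_OE libraries, against 6.10, 6.71 and 7.04 in the WT libraries. Every fitted FOG2_OE value lay above every fitted WT value, which the model fixes for any feature whose fold change exceeds the differences in library size. The level was 0.686 CPM in FOG2_OE atria against 0.0856 CPM in WT atria, and the log2 fold change per the authors' deposited table was 2.98, a fold of 7.89 (implied SE 0.75, 95% interval 1.5 to 4.45, adjusted p = 0.00451).

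MSTRG.68058, of 244 bases at chr6:5483047-5483290, lies between that feature and the gene, 61 bases past the end of Pdk4 and also on its strand. The fitted counts of MSTRG.68058 were 20, 18.2 and 21.3 in FOG2_OE libraries, against 3.67, 4.05 and 4.24 in WT libraries and here too all FOG2_OE values lay above all WT values. The level was 0.251 CPM in FOG2_OE atria against 0.0516 CPM in WT atria, with a log2 fold change of 2.25, a fold of 4.74, per the authors' deposited table (implied SE 0.64, 95% interval 1.0 to 3.49, adjusted p = 0.00723). Per kb of feature, MSTRG.68058 stood at 1.03 CPM in FOG2_OE atria against 0.211 CPM in WT atria, and MSTRG.68047 at 0.567 CPM in FOG2_OE atria against 0.0707 CPM in WT atria. The log2 fold change of MSTRG.68047 exceeded that of MSTRG.68058 by 0.73, with a 95% interval of the difference of -1.20 to 2.66, so that they were not distinguished from each other.

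The feature inside Pdk4 was not called. MSTRG.68060, of 397 bases at chr6:5484107-5484503, lies wholly in the exon that holds the 3′ untranslated region of Pdk4 and is listed on the opposite strand. It had fitted counts of 14.9, 13.6 and 15.9 in FOG2_OE libraries and 17.3, 19.0 and 19.9 in WT libraries. Its level was 0.187 CPM in FOG2_OE atria against 0.242 CPM in WT atria, and it did not pass the test (log2 fold change -0.37 per the authors' deposited table, implied SE 0.63, adjusted p = 0.829). The log2 fold change of MSTRG.68047 was higher than that of MSTRG.68060 by 3.35 (95% interval 1.43 to 5.27) and that of MSTRG.68058 was higher by 2.62 (0.87 to 4.37). These differences were chosen after the values were seen, and their intervals assume that the features vary independently. No other feature lay within 100 kb of Pdk4.

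Higher calls past a gene's end were scarce in the table. Of 6689 features that lay within 5 kb past the end of a protein-coding gene on its strand, 0.478% were called higher and 2.02% lower. The 32 features called higher belonged to 28 genes, of which 3, Pdk4 among them, had more than a single one. Among the 6689 features, 26 had a log2 fold change above that of MSTRG.68047 and 87 one above that of MSTRG.68058, per the authors' deposited table. The strand of a feature is the one listed in the table, as the kit used for the libraries leaves strand unmarked.

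At Ppara, a feature over the start of the gene fell in FOG2_OE atria. MSTRG.31550 has 1393 bases at chr15:85733848-85735240 and is listed on the minus strand, opposite to Ppara (chr15:85734983-85802819). It begins 1135 bases before the start of the gene and reaches 258 bases into it, over the first exon of a noncoding transcript. The first protein-coding transcript of Ppara starts 324 bases beyond the end of the feature. Fitted counts were 22.5, 20.4 and 24.0 in FOG2_OE libraries, against 69.2, 76.2 and 79.9 in WT libraries. The level of MSTRG.31550 was 0.282 CPM in FOG2_OE atria against 0.972 CPM in WT atria, with a log2 fold change of -1.78 per the authors' deposited table (implied SE 0.44, 95% interval -2.63 to -0.92, adjusted p = 0.00238). It had the smallest adjusted p of the 21 features per the authors' deposited table.

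Features of this kind, over a gene start and listed on the opposite strand, numbered 415 in the table. Of these, 2.17% were called lower and 0.964% higher, and 11 had a log2 fold change below that of MSTRG.31550. A feature 9.45 kb upstream of Ppara, MSTRG.31528 at chr15:85725229-85725532, had fitted counts of 1.34, 1.22 and 1.43 in FOG2_OE libraries, against 7.15, 7.88 and 8.26 in WT libraries. Its log2 fold change of -2.47 per the authors' deposited table had an implied SE of 0.99, and it did not pass the test (adjusted p = 0.0775).

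The other features of Ppara lay farther upstream, inside the annotated long noncoding gene Lncppara (chr15:85653616-85707524), and neither was called. MSTRG.31540, 64.5 kb upstream of Ppara, stood at 0.401 CPM in FOG2_OE atria against 0.542 CPM in WT atria (log2 fold change -0.43 per the authors' deposited table, implied SE 0.42, adjusted p = 0.663). All of its 904 bases also belong to MSTRG.31538 (chr15:85645956-85670754), a long feature of the other strand, so that reads of the pair cannot be assigned by strand. MSTRG.31538 also overlaps Lncppara and is listed on the strand of Lncppara, the plus strand. It is not counted at Ppara, because its nearest protein-coding start is that of Wnt7b, 63.5 kb away. MSTRG.31538 was abundant, with 63.5 CPM in FOG2_OE atria against 70.9 CPM in WT atria, and its log2 fold change per the authors' deposited table was -0.16 (95% interval -0.55 to 0.23, adjusted p = 0.752). MSTRG.31542, 63.2 kb upstream, stood at 0.0378 CPM in FOG2_OE atria against 0.0267 CPM in WT atria with a log2 fold change of 0.48 per the authors' deposited table and a wide implied SE of 1.18. Lncppara also holds the hairpins of 2 microRNAs, and 0 features of the table overlapped them. Around Ppara, 11 more features belonged to neighbouring genes, and 0 of them were called, with log2 fold changes of -0.88 to 1.23 per the authors' deposited table.

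RNA past the end of Slc25a4 was the most abundant feature of the 4 loci and fell in FOG2_OE atria. MSTRG.80188 has 5478 bases at chr8:46200739-46206216 on the minus strand, that of Slc25a4 (chr8:46206797-46211284), and begins 581 bases past the annotated end of the gene. Its fitted counts were 1552, 1412 and 1654 in FOG2_OE libraries, against 2432, 2678 and 2810 in WT libraries. Its level was 19.5 CPM in FOG2_OE atria against 34.2 CPM in WT atria, or 3.56 CPM per kb in FOG2_OE and 6.24 CPM per kb in WT atria. The log2 fold change was -0.81 per the authors' deposited table (implied SE 0.23, 95% interval -1.26 to -0.36, adjusted p = 0.0115). Of all features past gene ends, only 7 were more abundant than MSTRG.80188.

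This call depended on the scale between the groups. When the median ratio of all features was set to 1, which raises every log2 fold change by 0.21 and leaves 5.1% of all features called, MSTRG.80188 stood at -0.60 on the log2 scale with an adjusted p of 0.115. The other features called at the 4 loci passed under that scale, with adjusted p of 0.00212 for MSTRG.68047, 0.00252 for MSTRG.68058 and 0.0122 for MSTRG.31550.

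The features inside Slc25a4 gave no call. All 4 were listed opposite to the gene and lay mostly over its exons, with exonic shares between 73.8% and 100%. MSTRG.80192, the most abundant of them, had fitted counts of 43.5, 39.6 and 46.3 in FOG2_OE libraries and 29.9, 33.0 and 34.6 in WT libraries, with a log2 fold change of 0.37 per the authors' deposited table (implied SE 0.39, adjusted p = 0.690). MSTRG.80193, over the first coding exon, had 0.335 CPM in FOG2_OE atria against 0.451 CPM in WT atria. The log2 fold changes of the 4 features lay between -0.42 and 0.37 per the authors' deposited table. Together they held 1.13 CPM in FOG2_OE atria against 1.13 CPM in WT atria, a ratio of 1.01, or 0.924 CPM per kb in FOG2_OE and 0.918 CPM per kb in WT atria. The log2 fold change of MSTRG.80188 minus that of MSTRG.80192 was -1.18 (95% interval -2.07 to -0.30), for a pair chosen after the values were seen and taken as independent. The remaining feature of the locus, MSTRG.80184, lies 348 bases past the end of the neighbour Cfap97, on the strand of Cfap97 and 15.0 kb from the start of Slc25a4. It stood at 0.114 CPM in FOG2_OE atria against 0.0523 CPM in WT atria and was not called (adjusted p = 0.494 per the authors' deposited table).

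**Figure D3:**
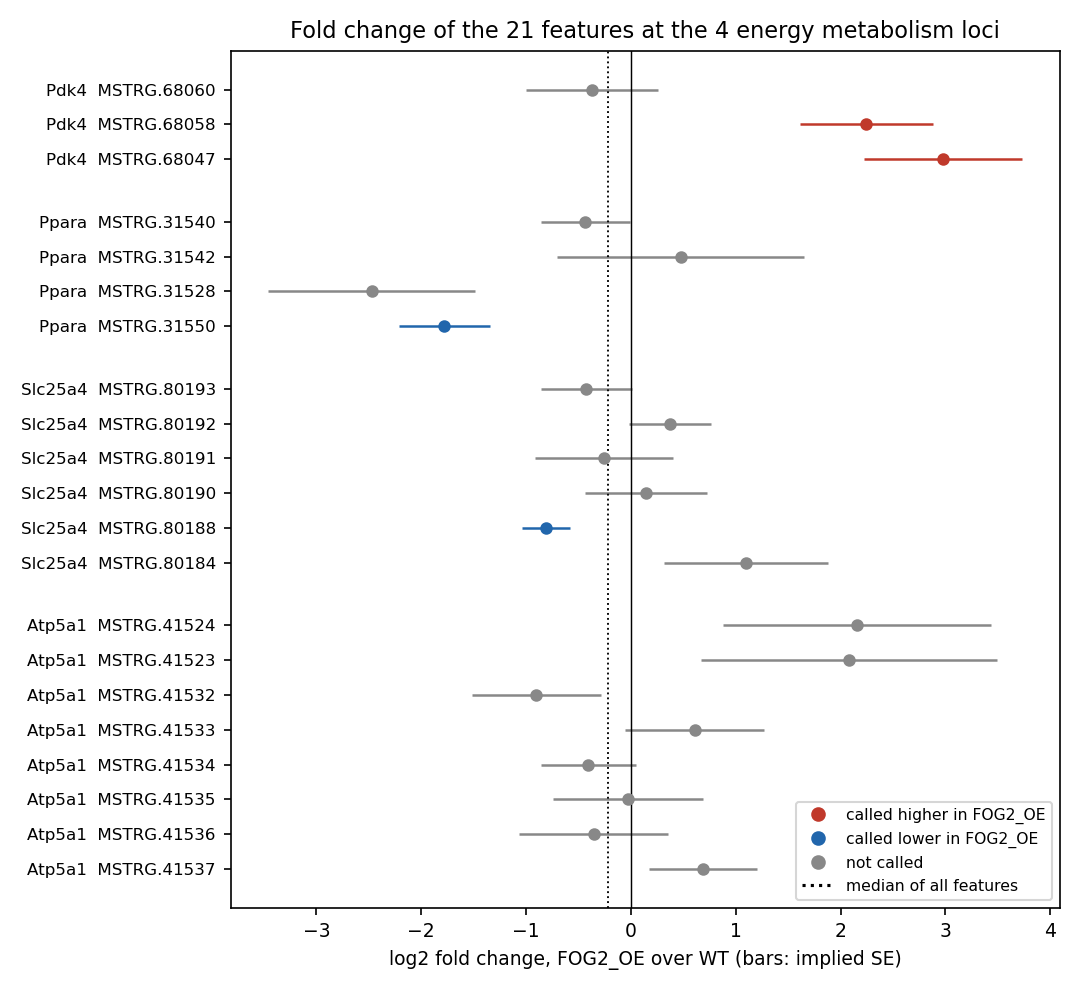
Log2 fold change of FOG2_OE over WT for each of the 21 features (authors' deposited table), grouped by gene, with bars that show the implied SE. The bars of MSTRG.80190 and MSTRG.41535 use the dispersion of features of like abundance. The 95% intervals are wider than these bars and are not drawn. Those of the 4 called features do not include 0, nor does that of MSTRG.31528 (-4.41 to -0.54), which was not called after adjustment.

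Atp5a1 (chr18:77773729-77782869) had 8 features, and 0 were called. Inside the gene lay 6 features, all listed on the strand opposite to Atp5a1, with log2 fold changes per the authors' deposited table from -0.90 for MSTRG.41532 near the start of the gene to 0.69 for MSTRG.41537 in the last exon. The most abundant, MSTRG.41534, had fitted counts of 22.6, 20.6 and 24.1 in FOG2_OE libraries and 26.8, 29.5 and 31.0 in WT libraries, and its log2 fold change per the authors' deposited table was -0.41 (implied SE 0.45, adjusted p = 0.712). MSTRG.41537 stood at 0.255 CPM in FOG2_OE atria against 0.158 CPM in WT atria, and MSTRG.41532 at 0.0796 CPM in FOG2_OE atria against 0.150 CPM in WT atria. The 6 features summed to 0.903 CPM in FOG2_OE atria against 0.951 CPM in WT atria, a ratio of 0.949.

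The other features of the Atp5a1 locus were 17.1 and 17.8 kb upstream of it, past the end of the neighbouring gene Haus1 and on its strand. They had the highest log2 fold changes of the locus, 2.15 for MSTRG.41524 and 2.08 for MSTRG.41523 per the authors' deposited table, on very few reads. MSTRG.41524 summed to 15 fitted reads over the FOG2_OE libraries and 3 over the WT libraries, a ratio of 4.89 per effective library with a counting interval of 1.38 to 26.4. MSTRG.41523 summed to 10 in FOG2_OE and 2 in WT, a ratio of 4.89 with a counting interval of 1.04 to 45.9. These intervals cover counting error alone, and neither feature passed the test (adjusted p = 0.335 and 0.390 per the authors' deposited table).

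The 11 features that lay within gene bodies had a median log2 fold change of -0.26 per the authors' deposited table, with 4 above 0 and 7 below, and their smallest adjusted p was 0.471. They summed to 2.22 CPM in FOG2_OE atria against 2.32 CPM in WT atria. Such features made up a large class of the table, 9777 in all, of which 1.02% were called higher and 4.15% lower. Of the 12 features that overlapped one of the 4 genes, 8 were at least 90% exonic. Over the table, 26.1% of the 10192 features that overlapped a gene on the opposite strand were, and this difference was not tested. As strand is not marked by the kit, reads from an exon of the gene and from a transcript on the other strand cannot be told apart in these features.

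**Figure D4:**
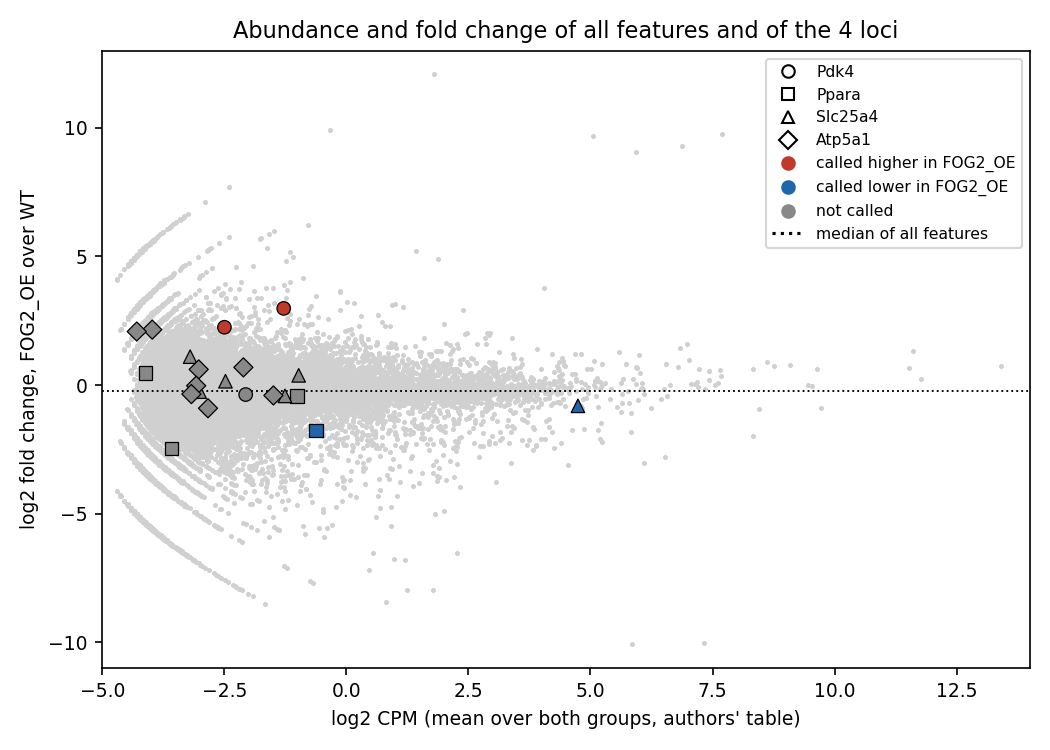
Log2 fold change of FOG2_OE over WT against log2 CPM for all 34518 features (grey) and the 21 features of the 4 loci, both from the authors' deposited table. For the loci, marker shape gives the gene and colour gives the call (higher, lower or not called). MSTRG.80188 of Slc25a4 lies far to the right of the other features of the loci, and the Pdk4 pair lies above 0, at 2.98 and 2.25.

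The Pdk4 features summed to 1.12 CPM in FOG2_OE atria against 0.380 CPM in WT atria, a ratio of 2.96, and the feature MSTRG.68047 held 61.1% of the FOG2_OE sum and 22.6% of the WT sum. The Ppara features summed to 0.738 CPM in FOG2_OE atria against 1.64 CPM in WT atria, a ratio of 0.450. Those of Slc25a4 summed to 20.7 CPM in FOG2_OE atria against 35.3 CPM in WT atria, a ratio of 0.587, of which MSTRG.80188 held 94.0% in FOG2_OE and 96.7% in WT atria. Without MSTRG.80188, the Slc25a4 features summed to 1.25 CPM in FOG2_OE atria against 1.18 CPM in WT atria. Those of Atp5a1 summed to 1.01 CPM in FOG2_OE atria against 0.973 CPM in WT atria. These sums were not tested, since the deposited columns hold no spread between replicates.

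The 7 lists of other energy metabolism genes covered the pyruvate dehydrogenase complex, the PPAR and ERR receptors, fatty acid oxidation, nucleotide and phosphate carriers, ATP synthase, the citric acid cycle and glycolysis. They held 144 gene names beside the 4 loci, of which 140 were in the annotation. Features were found for 89 genes, 256 in all, with 0 called higher and 2 called lower, or 0.781%, per the authors' deposited table. Of all features 1.16% were called higher and 4.65% lower, and the difference of the lists from this share was not tested. Without any of the 4 loci their median log2 fold change was -0.28 per the authors' deposited table, and their summed level was 75.2 CPM in FOG2_OE atria against 92.4 CPM in WT atria.

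Among the regulators of pyruvate dehydrogenase, Pdk1, Pdk2 and Pdk3, the other kinases of the complex, had no features. A feature past the end of Pdhx, which encodes the subunit that binds the E3 enzyme into the complex, fell to 2.03 CPM in FOG2_OE atria, against 4.30 CPM in WT atria. This feature, MSTRG.47494 at chr2:103016033-103021032, starts 43 bases past the end of the gene and had a log2 fold change of -1.09 per the authors' deposited table (implied SE 0.36, adjusted p = 0.0476). The second call was MSTRG.79605, 1.01 kb from the start of Vdac3, a channel of the outer mitochondrial membrane, with 2 fitted reads summed over FOG2_OE libraries and 24 over WT libraries. Its ratio of 0.0815 had a counting interval of 0.00934 to 0.328, and its adjusted p was 0.0344 per the authors' deposited table. Both lost their call when the median ratio of all features was set to 1, with adjusted p of 0.163 for the Pdhx feature and 0.0591 for the Vdac3 feature, and with the F test on 10 residual degrees of freedom, with 0.236 and 0.213. Apart from these calls, the other 14 features of the pyruvate dehydrogenase list and the other 45 of the carrier list were not called, and the list medians were -0.24 and -0.31 per the authors' deposited table.

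In the fatty acid list, which holds many targets of PPARα, 0 of 52 features were called and the median log2 fold change was -0.30 per the authors' deposited table. Lpl and Angptl4 are named after their values were seen. Features of Lpl, the lipase that frees fatty acids from lipoproteins, summed to 4.81 CPM in FOG2_OE atria against 8.69 CPM in WT atria, with 0 of 8 called. Angptl4, an inhibitor of that lipase and a PPARα target, had a single feature at 0.0733 CPM in FOG2_OE atria against 0.0130 CPM in WT atria. This feature was not called, and its WT level rests on very few reads. A link between the values of Lpl and Angptl4 was not tested. The receptor and cofactor list gave 0 calls of 31 features, ATP synthase 0 of 34, the citric acid cycle 0 of 40 and glycolysis 0 of 38. The median log2 fold change per the authors' deposited table was -0.18 for the receptors, -0.33 for ATP synthase, -0.39 for the citric acid cycle and 0.03 for glycolysis.

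**Figure D5:**
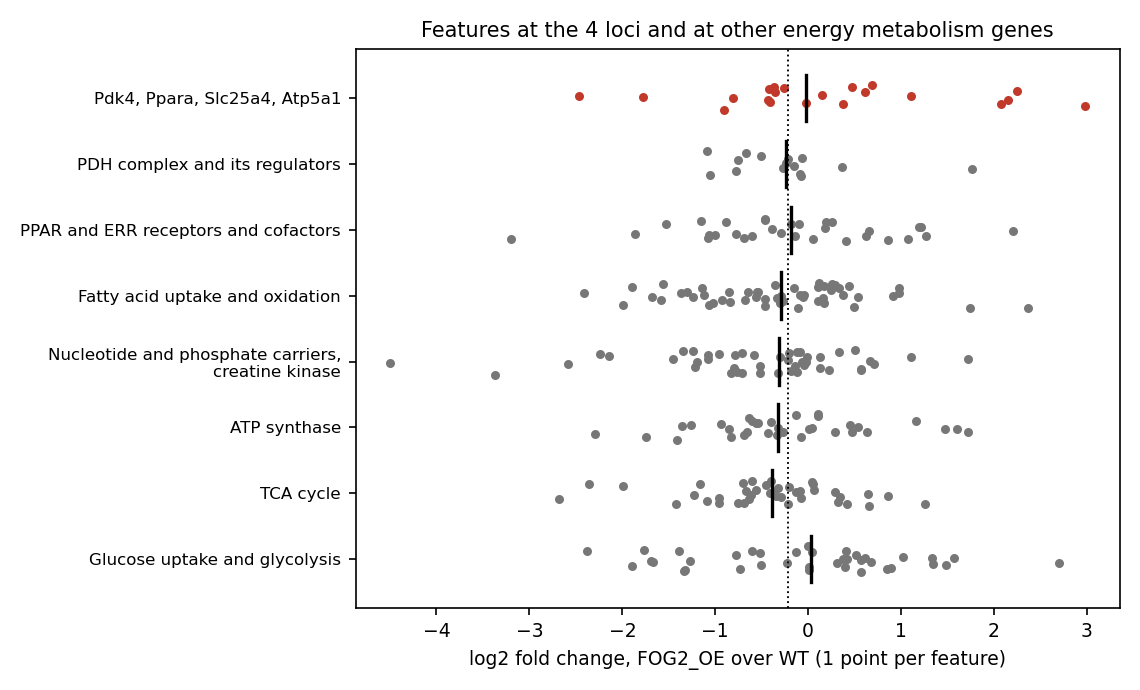
Log2 fold changes of FOG2_OE over WT (authors' deposited table), with 1 point per feature and the median of each row. The first row shows the features of the 4 loci, and the rows below it the 7 energy metabolism lists without these loci. The medians of the 7 lists lie between -0.39 and 0.03, near the median of all features at -0.21, and 2 of the 256 features on these lists were called.

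The whole series gave the following setting for these values. A feature at Zfpm2, which encodes FOG2, stood at 416 CPM in FOG2_OE atria against 0.484 CPM in WT atria (log2 fold change 9.74 per the authors' deposited table, implied SE 0.31) and was higher in the group labelled as overexpressing it. Effective libraries held between 72464183 and 84907173 reads in FOG2_OE and between 71180401 and 82251201 reads in WT, and the features listed in the table held 5.25% of the FOG2_OE and 4.43% of the WT effective library. Noncoding features near atrial muscle marker genes summed to 15.4 CPM in FOG2_OE atria against 28.8 CPM in WT atria, with 6 of 45 called lower and 0 higher. All 6 calls lay at Myl7, with 2.19 CPM in FOG2_OE atria against 10.4 CPM in WT atria, and at Sln, with 5.64 CPM in FOG2_OE atria against 12.6 CPM in WT atria. The features of Nppa, Myl4, Tbx5 and Kcna5 were not called, and their sums in FOG2_OE over WT had ratios of 1.17, 1.13, 1.12 and 1.84. The median log2 fold change of the atrial list was 0.07 per the authors' deposited table, and with the median ratio of all features set to 1 the list had 3 lower and 1 higher calls. Those near fibroblast marker genes summed to 13.9 CPM in FOG2_OE atria against 13.7 CPM in WT atria, and those near adipocyte marker genes to 6.38 CPM in FOG2_OE atria against 8.26 CPM in WT atria, with 0 called in either list. The median log2 fold change of the fibroblast list was 0.45 per the authors' deposited table. Its sums in FOG2_OE over WT had ratios of 3.06 for Col1a1, 1.33 for Col1a2, 1.26 for Lum, 1.05 for Col3a1, 0.900 for Dcn and 0.849 for Pdgfra. Of the adipocyte markers, Plin1, Cidec, Retn and Ucp1 had no features. Features near endothelial markers summed to 3.76 CPM in FOG2_OE atria against 3.11 CPM in WT atria, with 0 of 19 called. Their median log2 fold change was -0.13 per the authors' deposited table. The endothelial markers went both ways, with ratios of 1.62 for Pecam1, 1.28 for Emcn, 1.27 for Cdh5, 0.488 for Kdr and 0.486 for Tek. No features lay near skeletal muscle markers. Those near smooth muscle markers summed to 0.655 CPM in FOG2_OE atria against 0.454 CPM in WT atria, with 1 of 6 called higher, a feature of Acta2 at 0.221 CPM in FOG2_OE atria against 0.00433 CPM in WT atria. The WT level of this feature rests on very few reads. The Acta2 call also passed with the median ratio set to 1 and under the F test on 10 residual degrees of freedom. The other smooth muscle markers with features had ratios of 1.70 for Rgs5, 1.13 for Cnn1, 0.791 for Myh11 and 0.619 for Tagln. The median log2 fold change of this list was 0.06 per the authors' deposited table. Of the ventricular markers only Myl3 had features, which summed to 0.871 CPM in FOG2_OE atria against 0.967 CPM in WT atria, while Myl2, Irx4, Hey2 and Kcnip2 had none. The macrophage list had 3 features, which summed to 0.191 CPM in FOG2_OE atria against 0.178 CPM in WT atria. Its markers Ptprc, Adgre1 and Itgam had none. The part of cell composition in the results at the 4 loci was not tested.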

How the data were processed

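Left atrial RNA of 3 FOG2_OE and 3 WT libraries was compared, grouped by title and genotype. The libraries were made with a TruSeq RNA v2 kit, per the labels' protocols, and this kit leaves strand unmarked. STAR, HTSeq 0.6.0, edgeR and deepTools, and mm10 as build, appear in the submitters' processing notes without a stated role, and the assembler and the settings are not given in the sources used here. The authors' deposited table holds log2 values (the fold change of FOG2_OE over WT and the mean CPM), the likelihood ratio as a score, and raw and adjusted p-values for each feature.

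The deposited sample columns were constant multiples of each other within a group (largest relative spread 1.8e-14). They were read as fitted counts of the authors' model, so the edgeR fit planned for raw counts could not be run, and the authors' deposited comparison is the main result. Effective library sizes came from 718 features of at least 300 fitted counts. For likelihood ratios of at least 0.1, the dispersion was chosen so that a feature's fitted values return the deposited ratio. Below that, as for MSTRG.80190 and MSTRG.41535, it was taken from features of like abundance. The dispersion gave the implied standard error. Intervals are 95%. On simulated data for FOG2_OE over WT (34518 features, 200 changed, at least 20 expected counts), dispersions came back within 0.3% (median error). The simulated ratios were computed with the true dispersions, so this recovery was fixed in advance and checks only the arithmetic. In these data 11% of 2-fold and 82% of 4-fold changes were called, with 9 unchanged features called. These calls also used the true dispersions, so the rates leave out error in estimating them. Changed features under 20 expected counts were not simulated, so the rates do not cover rarer features.

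Starts in the table count from 0, since 96 of 102 symbols had a start 1 below the RefSeq start, and are printed counting from 1. All member features could be named, and in full those called, the most abundant and those with the smallest p per gene. Members, lists and tests were chosen with earlier results of these data known. Promoters are from RefSeq (GRCm38.p6), matched by symbol for the 3 genes shown. Python 3.11.15, numpy 2.4.6, scipy 1.17.1, pandas 2.3.3 and matplotlib 3.10.9 were used. Alternatives were a median ratio of 1, F tests on 4 or 10 residual degrees of freedom, a minimum of 10 fitted counts, an adjusted p of 0.01, features overlapping genes, a 50 kb limit and loci without their most abundant feature.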

Additional observations from a re-analysis of the deposited data

How the results depend on the processing

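No paired analysis was possible because the deposited columns are fitted values that differ within a group only by library size. For the same reason no replicate could be left out and no other count test was run. Setting the median ratio to 1 left 1 of the 2 lower calls at the 4 loci and 0 of the 2 on the pathway lists, and gave 560 higher and 1199 lower calls over the table, against 402 and 1605. An F test on 10 residual degrees of freedom gave 0 higher and 0 lower calls at the loci, 0 lower on the lists, and 70 higher and 370 lower over the table. On 4 degrees of freedom there were 0 calls in each, with 529 higher and 1927 lower features at an unadjusted p under 0.05, 4 of them at the loci, and a smallest adjusted p of 0.252. A minimum of 10 fitted counts gave 234 higher and 943 lower calls over the table and 1 lower on the lists. At an adjusted p of 0.01 there were 210 higher and 929 lower calls, with 1 lower at the loci and 0 on the lists. With only features that overlap a gene, 0 higher and 1 lower were called at the loci.

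The log2 ratio of summed levels at Pdk4, 1.57, was -0.37 with overlapping features only and 0.57 without the most abundant feature. At Ppara, -1.15 became -1.78 with overlapping features, -1.84 with a 50 kb limit and -0.55 without the most abundant. At Slc25a4, -0.77 became -0.55 with the median ratio at 1, 0.01 with overlapping features and 0.08 without MSTRG.80188. MSTRG.41535 of Atp5a1 moved to 0.19 (adjusted p = 0.944) with the median ratio at 1. Of the comparisons of single features, 64 kept their direction and side of the threshold and 9 lost the call. The F tests leave the fold change as it is and only raise p. For features that were not called, their outcome was therefore fixed in advance, so the 64 do not measure robustness. All 9 losses fell on called features. Each called feature lost its call under the F tests, and MSTRG.80188 also with the median ratio at 1. The median fitted count was 7.22 per library, which limits what could be called.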

Other observations

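Within 100 kb of Atp5a1, 4 features belonged to other genes, and 1 of them was called lower. This feature, MSTRG.41521 at chr18:77729491-77730475 over the long noncoding gene A330094K24Rik, fell to 0.284 CPM in FOG2_OE atria, against 0.730 CPM in WT atria (log2 fold change -1.36 per the authors' deposited table, implied SE 0.43, adjusted p = 0.0348). It was named after its values were seen. Of the citric acid cycle genes, Sdhc, a membrane subunit of succinate dehydrogenase, had a single feature at 2.52 CPM in FOG2_OE and 4.91 CPM in WT atria, which was not called.

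Past gene ends, the 135 features called lower belonged to 110 genes, of which 21 had more than a single one, and Slc25a4 had 1.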
